A study of Mus musculus with 14 samples.

Results

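Transcripts of collagens, laminins and other structural genes of the extracellular matrix were followed in mouse pancreatic β-cells and whole islets. The set holds every gene whose symbol names a collagen chain or a laminin chain, together with fibronectin (Fn1), the fibrillins Fbn1 and Fbn2, the nidogens Nid1 and Nid2, perlecan (Hspg2), Sparc, Sparcl1, decorin (Dcn), lumican (Lum), biglycan (Bgn), periostin (Postn), tenascin C (Tnc), versican (Vcan) and elastin (Eln). It was chosen by symbol alone and holds 70 of the 37310 gene identifiers in each count table. Of these, 44 are collagen chains and 11 are laminin chains. By role they were grouped as 11 fibrillar collagens, 6 chains of collagen VI, 6 basement membrane chains of collagen IV, 21 other collagens, 11 laminins, 3 basement membrane linkers, 8 adhesive and elastic fibre glycoproteins and 4 proteoglycans.

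The study profiled RNA from 14 libraries of C57BL/6 mice, in 3 tables. The first holds wild-type β-cells, which secrete insulin from within the islets, from neonates at postnatal day 6 (neonatal replicates 1, 3a and 3b) and from adults at day 45 (3 libraries). The second holds whole islets of animals aged 8 weeks, with 2 libraries under the label TSC1 KO and 2 RC controls. The third holds whole islets of animals aged 4 weeks, 2 libraries labelled Db, the usual name of the diabetes allele of the leptin receptor gene in mice, and 2 BKS controls. The strain is given as C57BL/6 throughout, BKS animals included, and the sources used here do not say what RC stands for. The series describes the knockout as one of β-cells, without naming the promoter or Cre line that drove it, and whether animals were pooled is not given either.

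The extracellular matrix of an islet has a basement membrane part and an interstitial part. Basement membranes are sheets of laminin trimers and collagen IV networks, which nidogens and perlecan hold together, and in islets they surround the capillaries and the islet edge, where β-cells touch them through integrins. Mouse β-cells are known to take much of this basement membrane from neighbouring endothelial cells, while fibrillar collagens I, III and V come chiefly from fibroblasts and other mesenchymal cells.

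Gene counts per library ran from 3507929 to 17688772. The matrix genes took 0.043% to 0.127% of them in the β-cell libraries and 0.245% to 1.188% in the islet libraries. Values below are CPM, counts scaled to a common library total with TMM, scaled separately within each table, so levels are compared only within a table unless a ratio of genes within one library is given. A gene is called higher or lower where edgeR's quasi-likelihood test gives a Benjamini-Hochberg adjusted p under 0.05, and every adjusted p below is from that test. Tsc1 itself read 31.0 and 34.4 CPM in the libraries labelled TSC1 KO and 25.1 and 54.1 CPM in their controls, so it did not separate the groups (-0.28 on the log2 scale with an SE of 0.38, edgeR adjusted p = 0.638). Summed CPM of 9 β-cell markers, insulin included, ran from 23580 to 32820 in neonatal and from 54360 to 90070 in adult β-cells. It was 599700 and 920200 in BKS control islets against 494600 and 427600 in Db islets. It was 234700 and 265000 in RC control islets against 12810 and 13330 in TSC1 KO islets. The same genes can be lower because fewer cells of a type were present or because each held less RNA, and in bulk samples these cannot be told apart.

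**Figure D1:**
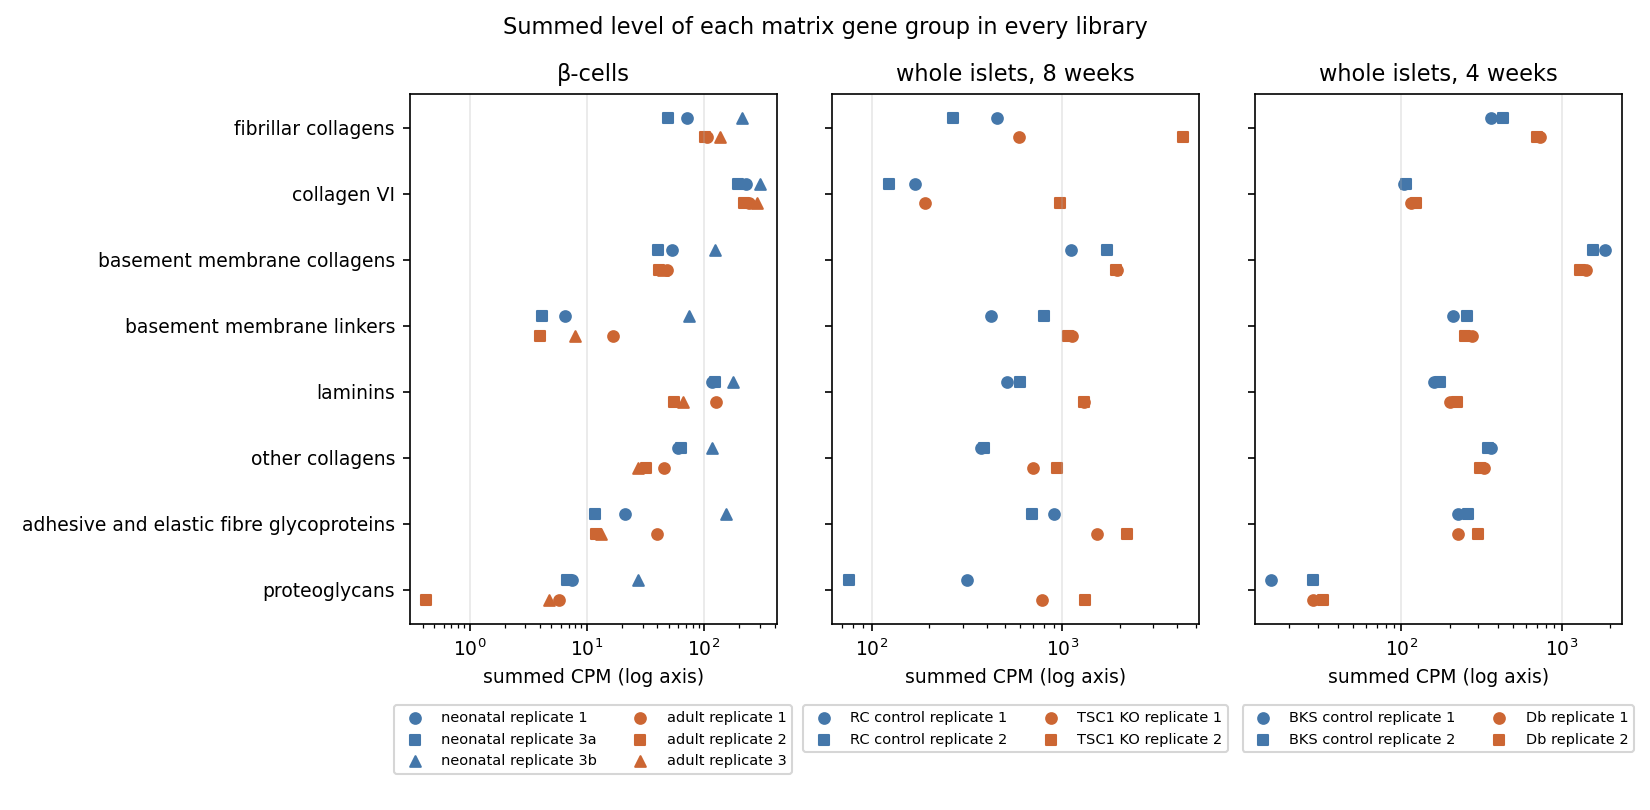
Summed CPM (log axis) of each matrix gene group in every library, with controls or neonates in blue and the compared group in orange, and marker shape for the replicate; each panel is one table with its own scaling. Fibrillar collagens were highest in TSC1 KO replicate 2 at 4273 CPM, and neonatal replicate 3b lay above both other neonatal libraries in every group.

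In β-cells Col6a6 led at both ages. It encodes a long chain of collagen VI that can stand in for the α3 chain, and it took 22.7% to 43.0% of all matrix gene counts in each of the 6 libraries. Its level per length was 24.8 ± 5.22 CPM per kb in neonatal and 24.3 ± 4.01 CPM per kb in adult β-cells (SD, n = 3 each). Laminin γ1 (Lamc1, part of most laminin trimers) stood at 11.8 ± 1.78 CPM per kb in neonates, next after Col6a6, and 7.02 ± 2.53 CPM per kb in adults, below Col5a2. Col4a1, the commonest collagen IV chain, stood at 7.76 ± 2.69 and 5.38 ± 0.406 CPM per kb, and Col5a2 at 3.84 ± 1.62 and 13.2 ± 4.02 CPM per kb. Islets had another order on the same scale. Sparc, a collagen-binding glycoprotein, led in RC control islets at 210 ± 35.4 CPM per kb (SD, n = 2), and Col4a1 led in BKS control islets at 135 ± 6.23 CPM per kb.

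Some partner chains were farther apart in β-cells than in islets and others were not. Collagen IV is built from 2 α1 chains with 1 α2 chain, and Col4a1 and Col4a2 sit head to head on chromosome 8 with their start sites beside each other. Counts of Col4a1 and Col4a2 were 734 and 39 in neonatal replicate 1, 529 and 14 in replicate 3a, and 1160 and 651 in replicate 3b. In adults they were 554 and 114, 455 and 66, and 465 and 37. The ratio of Col4a1 to Col4a2 per length was thus 4.74 to 36.8 in these libraries other than neonatal replicate 3b, where it was 1.74. In all 8 islet libraries it lay between 0.954 and 1.47, below every β-cell library. Lamc1 and Lamb1, which join 1 to 1 in many laminins, had a ratio of 8.01 to 212 in β-cells, the highest of them on 2 counts of Lamb1, and 0.944 to 2.15 in islets. Col6a6 and Col6a1, which share trimers, had a ratio of 21.8 to 1358 in β-cells, the highest on 1 count of Col6a1, and 0.0455 to 0.751 in islets, so that Col6a6 was the lower of the pair there. Col1a1 and Col1a2, partners in collagen I, gave 0.206 to 2.12 in β-cells and 0.513 to 1.63 in islets, and 4 of the 6 β-cell ratios lay within the islet range. Col6a1 and Col6a2 gave 0.0171 to 59.9 in β-cells, both ends on 1 count of one chain, and 0.775 to 1.31 in islets. Col4a1 and Col4a2 overlap each other on opposite strands, and the strand setting of the counting is not given, so reads of one could be counted for the other.

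The windows around these start sites show how close the pair lies. The sequences below are RefSeq promoter windows of build GRCm38.p6, cut to 280 bases (250 before the start and 30 from it) and written 5′ to 3′ on each gene's own strand, and capitals mark the 38 bases that both windows share. The Col4a1 window is chr8:11312797-11313076 (minus strand) and the Col4a2 window chr8:11312555-11312834 (plus strand).
Col4a1: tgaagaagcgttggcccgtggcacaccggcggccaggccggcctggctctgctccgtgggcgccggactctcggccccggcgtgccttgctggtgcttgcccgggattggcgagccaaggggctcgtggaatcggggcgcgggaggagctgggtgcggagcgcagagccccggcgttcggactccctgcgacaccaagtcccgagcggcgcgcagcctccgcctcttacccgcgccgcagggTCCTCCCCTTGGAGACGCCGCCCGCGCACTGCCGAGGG
Col4a2: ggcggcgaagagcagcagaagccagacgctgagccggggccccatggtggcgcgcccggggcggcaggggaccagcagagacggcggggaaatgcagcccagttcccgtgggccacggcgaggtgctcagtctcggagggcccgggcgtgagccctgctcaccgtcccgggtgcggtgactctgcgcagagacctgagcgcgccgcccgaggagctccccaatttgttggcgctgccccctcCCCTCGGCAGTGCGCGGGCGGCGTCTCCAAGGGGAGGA
Of the 70 genes, 48 have a window in that RefSeq table, 54 windows of 300 bases in all. The letters GGGCGG, read on either strand, were found in 61.1% of these windows and in 35.7% of all 32851 windows. CCAAT was found in 31.5% against 37.4%, and TATAAA in 14.8% against 13.6%. The member windows were also richer in G and C, with a median of 59.5% against 52.7%, and a match is only a match of letters.

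The first comparison asks how β-cells change as they mature. Of the 70 genes 43 passed the filter on low counts, and 1 was called, higher, against 3.38% of all 14304 genes tested called higher and 6.98% called in either direction. That gene was Col5a2, the α2 chain of collagen V, which helps set the width of collagen fibrils. Its levels were 37.3, 16.6 and 22.3 CPM in neonatal and 60.5, 87.8 and 114 CPM in adult β-cells. Every adult library lay above every neonatal one. The log2 fold change was 1.78 ± 0.32 SE (edgeR adjusted p = 0.00293, n = 3 each). It was also called without any single library (edgeR adjusted p 0.000946 to 0.0262) and missed the threshold only with the replicate number as a block (edgeR adjusted p = 0.0543). That block set neonatal replicates 3a and 3b beside adult replicate 3 and left adult replicate 2 without a partner. It kept 2 residual degrees of freedom, and calls over all genes fell from 484 higher and 515 lower to 102 and 56. The gene whose chain pairs with it, Col5a1, read 0.651, 0.0673 and 8.70 CPM in neonates and 1.81, 1.29 and 0.0800 CPM in adults, so the groups overlapped.

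edgeR called 0 matrix genes lower in adult β-cells, with 3 (Eln, Lamc1 and Col9a2) at an unadjusted p under 0.05. DESeq2 called 1 lower and limma-voom 0. Groups that did not overlap were seen for 1 gene higher in adults (Col5a2) and 4 lower (Eln, Col27a1, Col28a1 and Vcan), against 14% and 13.4% of all genes tested. Lamc1 read 94.0, 74.7 and 101 CPM in neonates and 75.6, 39.8 and 45.2 CPM in adults (-0.75 on the log2 scale with an SE of 0.26, edgeR adjusted p = 0.0998), so only adult replicate 1 reached into the neonatal range. Elastin (Eln), the core of elastic fibres, read 0.781, 1.95 and 32.3 CPM in neonates and 0, 0.286 and 0.480 CPM in adults (edgeR adjusted p = 0.0540; DESeq2 called it lower). All neonatal values lay above the adult ones, and without replicate 3b the edgeR adjusted p was 0.629.

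Neonatal replicate 3b stood apart from the other β-cell libraries in most of these genes. It held the highest value of the 6 libraries for 33 of the 43 tested genes. Col1a1, the main chain of collagen I, read 51.3 CPM there and 0.538 to 8.36 CPM in the other 5 libraries. Col3a1, the collagen III chain, read 61.7 CPM against 2.56 to 17.0 CPM, and Hspg2, the basement membrane proteoglycan, 67.1 CPM against 3.21 to 13.0 CPM. Col4a2 read 39.6 CPM there against 0.942 to 7.63 CPM. Summed CPM of 8 pericyte and smooth muscle markers was 64.1 in that library and 2.56 to 8.96 in the others. The sum of 11 fibroblast and mesenchymal markers was 15.9 against 0.135 to 8.49, with Twist1, Twist2, Gli1 and Tcf21 at 0 counts in every library. The acinar marker sum was also highest there, at 65.1 against 5.85 to 37.8, as was the other islet endocrine sum, at 2337 against 425 to 2188. The β-cell marker sum was lowest there, at 23580 against 28430 to 90070. Mesothelial, endothelial, Schwann, macrophage and duct sums of that library lay within the range of the others. The part of these cell types in the matrix values was not tested. The median log2 fold change of the tested matrix genes was -1.13, against -0.03 for all genes, and was -0.10 without that library, where Col5a2 was again the only call.

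**Figure D2:**
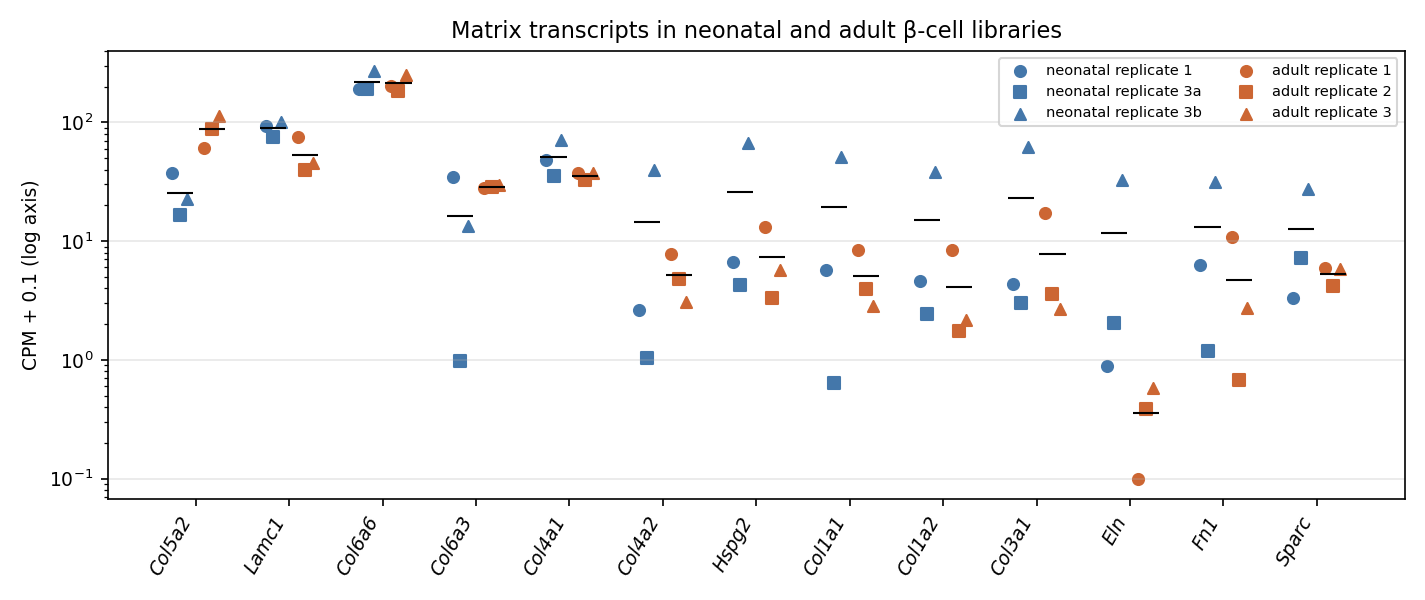
CPM + 0.1 (log axis) of 13 matrix genes in the 3 neonatal (blue) and 3 adult (orange) β-cell libraries; marker shape is the replicate and black lines are group means. Col5a2 is higher in all adult libraries, Col6a6 is level, and Col1a1, Col1a2, Col3a1 and Col4a2 are high in neonatal replicate 3b alone.

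Most other members were near the detection limit in β-cells. Col6a3 read 34.3, 0.874 and 13.3 CPM in neonates against 27.8, 28.6 and 29.6 CPM in adults, a wide neonatal spread beside a narrow adult one. Sparc stood at 3.19 to 27.4 CPM and Fn1, the cell-adhesive fibronectin, at 0.571 to 31.5 CPM over the 6 libraries. The 27 genes not tested include Col4a3, Col4a4, Col4a6, Lama2, Lamb2, Lamb3, Lamc3, Bgn, Lum, Tnc and Nid2, and Col11a1 had 0 counts in every β-cell library.

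Among other genes of matrix biology a few were called between the ages, beside 3.38% of all genes called higher in adults and 3.6% called lower. Of 20 tested genes of collagen processing and crosslinking 3 were lower in adults: the crosslinking enzyme Loxl2 (145, 160 and 147 against 84.1, 86.9 and 88.7 CPM), the collagen chaperone Serpinh1 and the prolyl isomerase Ppib. Each of these 3 lost the call without adult replicate 2 or adult replicate 3, and Loxl2 and Ppib also without adult replicate 1. Calls over all genes fell in these fits too, from 484 higher and 515 lower. They were 217 and 188 without adult replicate 1, 220 and 210 without replicate 2, and 242 and 221 without replicate 3. Of 21 matrix receptors tested, the collagen receptor Ddr1 was lower (-0.82 on the log2 scale with an SE of 0.15, edgeR adjusted p = 0.00380) and the integrin αV gene Itgav higher (0.65 ± 0.17, edgeR adjusted p = 0.0342). Both lost the call with GC and length trends removed, and Itgav also without any 1 of the 3 adult libraries. The matrix protein Matn2 was higher in adults at 873, 801 and 847 CPM against 211, 175 and 269 CPM in neonates (1.94 on the log2 scale with an SE of 0.17, edgeR adjusted p = 6.15e-06), and Spock2, a proteoglycan of the Sparc family, was the other called gene of 19 tested matrix glycoproteins. Of 10 matrix proteases and inhibitors tested 1 was called, the membrane protease Mmp14, lower in adults with a call lost without any 1 of the 3 adult libraries. Of 19 genes of TGF-β signalling edgeR called 0, with 4 at an unadjusted p under 0.05, DESeq2 called 1 and limma-voom 0.

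The second comparison asks what loss of TSC1, a brake on the mTORC1 growth pathway, does to islets. In the islets labelled TSC1 KO 4 of 10 tested laminins and 3 of 6 collagen IV chains were called higher. Col1a1, Col1a2, Col3a1, Col6a1, Col6a2 and Col6a5 were far higher in 1 of the 2 knockout libraries and were not called. Of 57 tested genes 14 were called higher and 2 lower, 28.1% of those tested, against 18.6% of all 14515 genes called and 8.63% called higher. Their median log2 fold change was 1.55, against 0.00 for all genes. Groups did not overlap for 47 genes higher and 4 lower in the libraries labelled TSC1 KO, against 33.6% and 34% of all genes.

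Laminins form the cell-facing layer of the basement membrane. Of 10 tested, 4 were called higher and all 10 had both knockout values above both controls, beside 8.63% and 33.6% of all genes. Lamc3, the laminin γ3 chain, read 8.06 and 6.62 CPM in controls and 40.3 and 51.8 CPM in the libraries labelled TSC1 KO (2.64 on the log2 scale with an SE of 0.25, edgeR adjusted p = 0.0105). Lama5, the α chain of the main laminins of adult basement membranes, read 76.2 and 75.8 CPM against 274 and 248 CPM (1.78 ± 0.23, edgeR adjusted p = 0.0127). Replicates within each group were close for both genes. Lamb2, the β2 chain of vascular and synaptic laminins, read 97.5 and 74.6 CPM against 290 and 216 CPM (1.55 ± 0.28, edgeR adjusted p = 0.0215). Lama2, Lama3, Lama4, Lamb1, Lamb3 and Lamc1 had log2 fold changes of 0.58 to 2.56 and were not called.

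Of the 6 collagen IV chains Col4a4, Col4a5 and Col4a6 were called higher, while the common pair Col4a1 and Col4a2 and the rarer Col4a3 were not. Col4a6 read 1.11 and 0.589 CPM in controls and 8.16 and 15.7 CPM in the libraries labelled TSC1 KO (3.77 on the log2 scale with an SE of 0.57, edgeR adjusted p = 0.0157). Col4a5, its partner in a trimer, read 9.01 and 6.18 CPM against 36.4 and 94.98 CPM (3.10 ± 0.54, edgeR adjusted p = 0.0235), and Col4a4 was also called (1.46 ± 0.34, edgeR adjusted p = 0.0374). Col4a3, the partner of Col4a4 and Col4a5, read 8.21 and 17.8 CPM against 13.98 and 30.4 CPM, with overlapping groups (0.75 ± 0.52, edgeR adjusted p = 0.349). Col4a1 read 626 and 1017 CPM in controls and 1081 and 1045 CPM in the libraries labelled TSC1 KO, within 0.37 ± 0.38 on the log2 scale (edgeR adjusted p = 0.525). Of the 3 linkers edgeR called 0, with 1 (Nid1) at an unadjusted p under 0.05, and DESeq2 and limma-voom called 0. Col4a2 gave 0.39 ± 0.35 and Hspg2, at 288 and 597 against 913 and 824 CPM, 0.97 ± 0.43, neither called. Col18a1, a basement membrane collagen that releases endostatin, read 29.2 and 10.2 CPM against 142 and 155 CPM (2.91 ± 0.51, edgeR adjusted p = 0.0235), and its row overlaps Slc19a1 on the opposite strand. The related Col15a1 was not called (0.83 ± 0.28, edgeR adjusted p = 0.0911).

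The chains of collagens I and III differed more between the 2 libraries labelled TSC1 KO than knockout replicate 1 did from the controls. Col1a1 read 83.6 and 26.8 CPM in controls, 109 CPM in knockout replicate 1 and 1227 CPM in replicate 2 (3.60 on the log2 scale with an SE of 1.28, edgeR adjusted p = 0.113). Col1a2 read 116 and 47.1 CPM, then 145 and 1392 CPM, and Col3a1 161 and 81.1 CPM, then 174 and 1232 CPM. In these 3 genes knockout replicate 1 lay just above the higher control, and replicate 2 stood alone. Of the 5 tested collagen VI chains edgeR called 0, with 3 at an unadjusted p under 0.05, DESeq2 called 2 and limma-voom 0. Col5a1, Col6a1, Col6a2, Col6a5, Col6a6 and Fbn2 were likewise at least 5 times higher in replicate 2 than in replicate 1. Thus 9 of the 57 tested genes had that gap between the knockout libraries. Their place against the controls varied, and Col6a6 in knockout replicate 1 (6.99 CPM) lay below both controls (17.2 and 47.8 CPM). Col6a2 read 61.1 and 30.01 CPM in controls and 77.6 and 398 CPM in the knockout, and lumican (Lum), a proteoglycan of collagen fibrils, 12.3 and 1.03 against 18.9 and 80.9 CPM. Sparc, which binds fibrillar collagen, read 541 and 426 against 688 and 1210 CPM (edgeR adjusted p = 0.139). Of the fibrillar chains Col5a2 was called higher (2.49 ± 0.54, edgeR adjusted p = 0.0376) and Col11a2 lower, at 20.2 and 30.3 against 8.86 and 5.35 CPM (-1.80 ± 0.36, edgeR adjusted p = 0.0250).

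**Figure D3:**
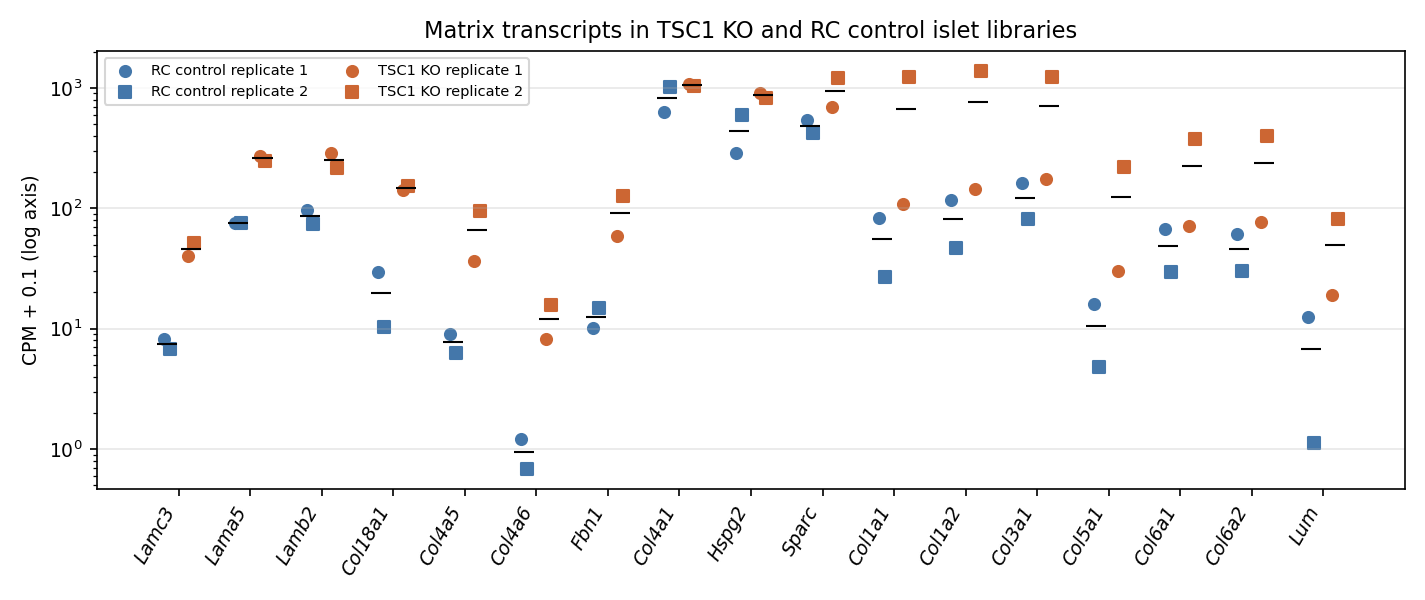
CPM + 0.1 (log axis) of 17 matrix genes in the 2 RC control (blue) and 2 TSC1 KO (orange) islet libraries; marker shape is the replicate and black lines are group means. Laminin chains and Col18a1 have both knockout values together above the controls, while Col1a1, Col1a2 and Col3a1 are far above the other libraries in knockout replicate 2 alone.

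Adhesive and elastic glycoproteins were mostly above controls, with 2 of 8 called. Fbn1, the main microfibril protein, read 10.1 and 14.9 CPM in controls and 58.3 and 126 CPM in the libraries labelled TSC1 KO (2.87 on the log2 scale with an SE of 0.44, edgeR adjusted p = 0.0174). Fn1 read 27.96 and 9.86 CPM against 183 and 106 CPM (2.94 ± 0.58, edgeR adjusted p = 0.0317). Elastin, at 50.4 and 7.36 against 214 and 292 CPM, was not called by edgeR (3.13 ± 0.90, adjusted p = 0.0721) and was called by DESeq2 and limma-voom. Of the 4 proteoglycans edgeR called 0, with 1 at an unadjusted p under 0.05, DESeq2 called 1 and limma-voom 0; that gene was biglycan (Bgn) at 248 and 65.3 against 685 and 1002 CPM (2.43 ± 0.68, edgeR adjusted p = 0.0601). Decorin (Dcn), versican (Vcan) and tenascin C (Tnc) gave 2.24 ± 1.00, 1.48 ± 0.66 and 2.11 ± 0.75. Periostin (Postn) and Nid2 were below 0 at -0.20 ± 0.63 and -0.37 ± 0.27, and none of these 5 was called. Among the other collagens Col8a1 (2.12 ± 0.43), a vessel wall collagen, Col14a1 (2.42 ± 0.52), which coats fibrils, and the transmembrane Col23a1 were called higher. Col23a1 rests on 2 counts in the controls and 31 in the knockout, a ratio of 27.9 with a 95% counting interval of 7.11 to 241. Col20a1 was called lower at 21.3 and 20.9 against 10.95 and 7.36 CPM (-1.19 ± 0.28, edgeR adjusted p = 0.0384).

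Without TSC1 KO replicate 1 or 2 the fits kept 1 residual degree of freedom, and edgeR and limma-voom called 0 of all 15304 and 15421 genes, so their loss of calls is not about matrix genes. In edgeR 38 and 20 matrix genes stayed at an unadjusted p under 0.05, and in limma-voom 41 and 21. DESeq2 called 20 and 8 matrix genes there, all higher, of which 10 and 8 were among the 16. The log2 fold change of Lamc3 was 2.81 and 2.45 in these edgeR fits. Fits without 1 RC control also kept 1 residual degree of freedom and did not lose every call. Why they differ from the fits without a knockout library was not tested. Among single controls left out, Col4a5 and Col14a1 lost the call without either, and Col4a4, Col5a2 and Col20a1 without RC control replicate 2. Fn1, Col4a4, Col5a2 and Col14a1 lost it with GC and length trends removed. The median log2 fold change was 1.84 without replicate 1 and 0.81 without replicate 2. Summed CPM of 11 endothelial markers was 2613 and 2839 in controls and 5609 and 4185 in the knockout, with Tek, Cdh5, Pecam1 and Egfl7 called higher. The fibroblast and mesenchymal sum was 245 and 134 against 286 and 429, and the pericyte and smooth muscle sum 1128 and 1005 against 1345 and 1172. Duct markers summed to 1338 and 429 against 2575 and 3604. Other islet endocrine markers summed to 32910 and 27040 in controls against 7519 and 2923 in the knockout. The macrophage and immune sum was 1076 and 768 against 935 and 768, and the acinar sum 1908 and 2882 against 2969 and 1180. The part of these cell types in the matrix values was not tested.

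Among receptors and remodelling enzymes of the matrix most calls in these islets were of higher levels, beside 18.6% of all genes called and 8.63% called higher. Of 26 matrix receptors tested 11 were called higher and 0 lower, led by the integrin genes Itgb8 (6.64 and 5.59 against 31.5 and 39.1 CPM) and Itga5 and by dystroglycan (Dag1), a laminin receptor (1.46 on the log2 scale with an SE of 0.20, edgeR adjusted p = 0.0131). Of 19 proteases and inhibitors 7 were higher, among them Adamts9, Adamts15, Mmp15 and Mmp11, and Mmp24 was lower. In TGF-β signalling 9 of 21 were higher, with Tgfb2 at 8.69 and 5.44 against 35.4 and 44.5 CPM, and 1 was lower. The heparan sulfate proteoglycan Agrn, a laminin-binding basement membrane protein, read 82.8 and 60.8 against 402 and 452 CPM (2.57 ± 0.30, edgeR adjusted p = 0.0109), and Spock1 fell by 3.69 ± 0.30 on the log2 scale. Of 25 processing genes 4 were higher, among them the procollagen protease Tll1, and 2 lower: the prolyl hydroxylase subunit P4ha1 and Bmp1, another procollagen protease.

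The third comparison sets islets labelled Db against BKS controls at 4 weeks. The receptor gene Lepr had 11 and 2 counts in controls and 1 and 4 in Db islets, too few to check the labels. Calls went both ways in Db islets. Fibronectin and 5 of 8 fibrillar chains were called higher and Col11a2 lower, while 5 of 13 other collagens were called higher and 4 lower. Of 54 tested genes 16 were called higher and 10 lower, 48.1% of those tested, close to the 48.2% of all 14369 genes called in this comparison (24.3% higher and 23.9% lower). The median log2 fold change was 0.21 against -0.03 for all genes, and it was -0.22 with GC and length trends removed. The split was 18 higher and 5 lower with library size alone, which moved the median of all genes to 0.29, and 12 higher and 14 lower with GC and length trends removed. Groups did not overlap for 23 genes higher and 19 lower, against 37.2% and 37.5% of all genes.

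Fibrillar collagens, the load-bearing fibres of interstitial matrix, had 5 of 8 tested chains called higher, beside 24.3% of all genes. Col1a2 read 34.9 and 50.1 CPM in controls and 119 and 111 CPM in Db islets (1.44 on the log2 scale with an SE of 0.21, edgeR adjusted p = 3.40e-06). Col3a1 read 65.2 and 104 CPM against 224 and 186 CPM (1.28 ± 0.22, edgeR adjusted p = 4.36e-05), and Col5a2 read 6.53 and 9.24 CPM against 26.4 and 21.5 CPM (1.61 ± 0.25, edgeR adjusted p = 6.07e-06). In all 3 the Db libraries lay together above the controls. Col1a1 read 42.5 and 90.2 CPM against 133 and 135 CPM (1.01 ± 0.28, edgeR adjusted p = 0.00829). It lost the call with GC and length trends removed (edgeR adjusted p = 0.196), as did Col27a1, a fibrillar chain at 136 and 92.5 against 173 and 191 CPM, which also lost it without BKS control replicate 2 or Db replicate 2. Col11a2 was lower, at 45.8 and 47.2 against 27.8 and 27.97 CPM (-0.74 ± 0.20, edgeR adjusted p = 0.00341), a call lost with library size alone and without Db replicate 2. Col5a1 and Col5a3 were not called (0.42 ± 0.26 and -0.27 ± 0.22).

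The promoter window of Col1a2 is shown because this chain had the smallest p of the set in Db islets. It is chr6:4505368-4505647 (plus strand, GRCm38.p6, cut as above), and capitals mark its 4 matches: GGGCGG, found at 2 places, and CCAAT read on each strand.
Col1a2: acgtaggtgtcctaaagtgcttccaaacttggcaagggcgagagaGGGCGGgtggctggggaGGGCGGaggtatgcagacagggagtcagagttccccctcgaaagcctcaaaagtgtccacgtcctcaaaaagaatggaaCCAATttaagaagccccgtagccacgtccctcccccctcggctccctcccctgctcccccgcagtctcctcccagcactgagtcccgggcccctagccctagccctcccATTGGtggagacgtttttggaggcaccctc
Col1a1, Col5a2 and Fn1 have no window in the table used.

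Fibronectin, which links collagen to integrins, was higher in Db islets at 13.4 and 18.8 CPM against 2.14 and 4.88 CPM in controls (2.23 on the log2 scale with an SE of 0.32, edgeR adjusted p = 3.96e-06). Fbn2, a fibrillin of developing tissue, had 0 counts in both controls and 56 in Db islets, which is at least 8.26-fold higher against a floor of 3 counts over the control group. Periostin was lower at 1.82 and 1.75 against 3.32 and 5.26 CPM (-1.25 ± 0.36, edgeR adjusted p = 0.00545). Its call was lost with library size alone, with GC and length trends removed and without BKS control replicate 2. Sparc (-0.11 ± 0.20), Sparcl1 (0.26 ± 0.20), Fbn1 (0.50 ± 0.27), Tnc (-0.51 ± 0.53) and Eln (0.30 ± 0.69) were not called, and elastin varied from 20.9 to 55.5 CPM between the controls alone. Of the proteoglycans Bgn was called higher (0.64 ± 0.25, edgeR adjusted p = 0.0406), a call lost with DESeq2, with GC and length trends removed and without BKS control replicate 1 or Db replicate 2. Dcn and Lum read at most 2.05 CPM in any library, and Vcan was not tested.

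The basement membrane chains went both ways. Col4a1 read 920 and 862 CPM in controls and 810 and 748 CPM in Db islets (-0.19 ± 0.21), and Col4a2 940 and 702 against 603 and 539 CPM (-0.52 ± 0.22, edgeR adjusted p = 0.0504; DESeq2 and limma-voom called it lower). Col4a5 was higher at 6.63 and 5.09 against 1.82 and 2.44 CPM (1.47 ± 0.35, edgeR adjusted p = 0.000993). Col4a4, which joins it in a trimer, was lower at 2.76 and 2.04 against 7.39 and 4.88 CPM (-1.37 ± 0.33, edgeR adjusted p = 0.00125), as was the third chain of that trimer, Col4a3 (-1.08 ± 0.34, edgeR adjusted p = 0.0106, lost with DESeq2, with library size alone and without BKS control replicate 1 or Db replicate 2). Laminin α4 (Lama4), typical of endothelial basement membrane, was lower at 5.64 and 7.51 against 15.6 and 13.4 CPM (-1.14 ± 0.25, edgeR adjusted p = 0.000607). Lama5 was higher at 73.1 and 74.3 against 42.1 and 44.3 CPM (0.77 ± 0.20, edgeR adjusted p = 0.00211, lost with GC and length trends removed at 0.144). Lama2 was called lower (-1.14 ± 0.47, edgeR adjusted p = 0.0464) and lost the call without any of the 4 libraries. Nid1, Nid2, Hspg2, Lama3, Lamb1, Lamb2, Lamb3, Lamc1 and Lamc3 were not called, with log2 fold changes of -0.59 to 0.68. Nid1 (0.68 ± 0.28, edgeR adjusted p = 0.0576) was called higher by limma-voom. In edgeR it was called higher with RLE scaling, library size alone, no filter, a replicate block, or mitochondrial and insulin genes left out. It was not called by DESeq2 or with GC and length trends removed.

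**Figure D4:**
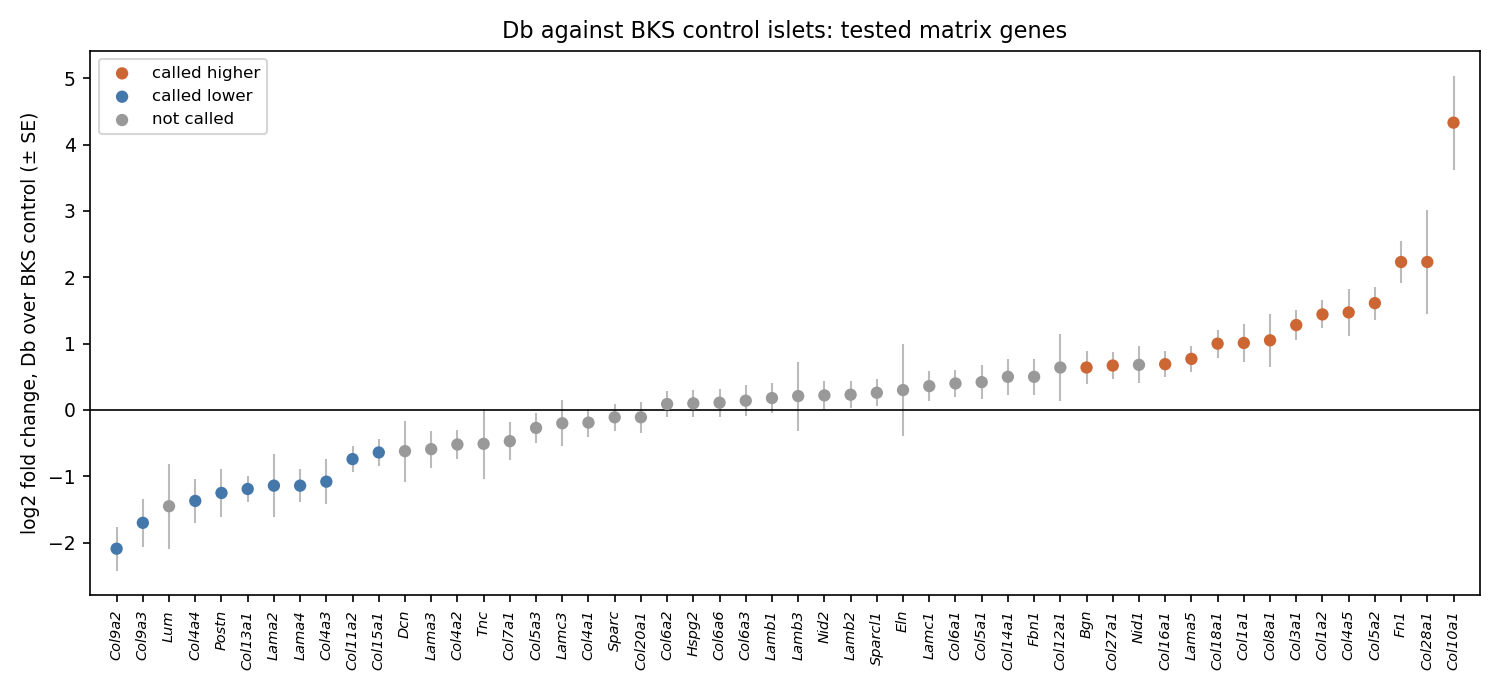
Log2 fold change of Db over BKS control with its SE for 52 of the tested matrix genes in order of size, coloured by call (edgeR adjusted p under 0.05); Fbn2, with 0 control counts, is among those left out. The ends of the order are Col9a2 at -2.09 and Col10a1, whose 2 control counts make its fitted value uncertain.

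Minor collagens gave the lowest values of the comparison. Col9a2, a chain of fibril-associated collagen IX, read 12.1 and 8.86 CPM in controls and 3.37 and 1.60 CPM in Db islets (-2.09 on the log2 scale with an SE of 0.33, edgeR adjusted p = 1.18e-05), and its partner Col9a3 fell by 1.70 ± 0.36 on the log2 scale. The transmembrane Col13a1 was lower at 44.1 and 35.3 against 88.4 and 92.4 CPM (-1.19 ± 0.20, edgeR adjusted p = 2.48e-05). Col18a1 was higher at 62.5 and 57.7 against 26.1 and 34.1 CPM (1.00 ± 0.21, edgeR adjusted p = 0.000271), while the related Col15a1 was lower at 73.2 and 85.0 against 137 and 109 CPM (-0.64 ± 0.20, edgeR adjusted p = 0.0105). The Col15a1 call was lost with library size alone and without BKS control replicate 1, Db replicate 1 or Db replicate 2. Col16a1, at 104 and 90.02 against 60.5 and 59.7 CPM, was higher with a call lost without Db replicate 1 (edgeR adjusted p = 0.0842). Col10a1, known from growing cartilage, had 2 control counts and 97 in Db islets, a ratio of 21.5 with a 95% counting interval of 5.78 to 180, and its row overlaps Nt5dc1 on the opposite strand. Col28a1 had 3 control counts and 33 (ratio 4.87, 1.53 to 24.8), and Col8a1 was called at 1.05 ± 0.40. Both of these lost the call with DESeq2 and without Db replicate 2. The 4 tested collagen VI chains had log2 fold changes of 0.09 to 0.40, and edgeR called 0, with 0 at an unadjusted p under 0.05, as did DESeq2 and limma-voom.

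Of the 26 calls, 11 higher and 5 lower ones held without any single library. These included Col1a1, Col1a2, Col3a1, Col5a2, Col4a5, Col10a1, Col18a1, Fn1, Fbn2 and Lama5 among the higher and Col4a4, Col9a2, Col9a3, Col13a1 and Lama4 among the lower. Enzymes that mature collagen were also called in Db islets: of 23 tested, 13 were higher and 2 lower (Crtap and Colgalt2), 65.2% against the background of 48.2%. The prolyl hydroxylase subunit P4ha2 read 9.21 and 10.1 CPM in controls and 42.6 and 48.2 CPM in Db islets (2.23 on the log2 scale with an SE of 0.22, edgeR adjusted p = 6.65e-09). The prolyl 3-hydroxylase P3h1, the lysyl hydroxylase Plod1 and P3h4 were the next by p. Of 24 matrix receptors 12 were higher and 3 lower, with the hyaluronan receptor Cd44 at 3.00 and 3.34 against 22.2 and 22.1 CPM. Of 28 other matrix glycoproteins 12 were higher, led by the basement membrane protein Smoc1 and the guidance protein Ntn1, and 5 lower. Proteases and TGF-β signalling genes split as 2 higher and 3 lower of 16, and 5 higher and 4 lower of 22.

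Cell type markers also differed in Db islets, beside 48.2% of all genes called in this comparison. Of the 9 β-cell markers 1 was called higher and 6 lower. The endothelial sum was 947 and 881 CPM in controls and 659 and 655 CPM in Db islets, with 3 of 11 markers called higher and 5 lower. Pericyte and smooth muscle markers summed to 204 and 229 against 272 and 265 CPM, with Myh11, Tagln, Acta2, Notch3 and Cspg4 called higher and Rgs5 and Abcc9 lower. The fibroblast and mesenchymal sum was 44.2 and 38.4 against 57.8 and 63.3 CPM, acinar markers 20.1 and 19.1 against 274 and 122, and duct markers 431 and 424 against 939 and 931. The part of these cells in the matrix values was not tested.

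The 8 islet libraries were also fitted together with edgeR, each table having its own term, which tested whether the TSC1 KO and Db differences were unequal. The tables differ in age and in their controls as well as in genotype, and these cannot be told apart. In the same fit 7 of 11 endothelial markers were called with the TSC1 KO difference higher and 0 with it lower. Of 9 β-cell markers 1 was called higher and 7 lower, and of 8 other islet endocrine markers 1 and 6. Duct markers split as 3 and 1 of 9, pericyte and smooth muscle markers as 2 and 1 of 8, and acinar markers as 0 and 2 of 8. The fibroblast and Schwann lists each had 1 higher and the macrophage list 1 lower. The part of these cell types in the matrix values was not tested. Of 10 tested laminins 6 were called with the TSC1 KO difference higher, which is a signed comparison and not one of size. Of 58 tested matrix genes 13 were called with the TSC1 KO difference higher and 3 with it lower. Among all 15702 genes the shares called higher and lower were 13.2% and 18.6%. Called in either direction were 27.6% of the matrix genes and 31.8% of all genes. For the matrix genes the split was 5 and 4 with library size alone, which moved the median of all genes to -0.47. Lamc3 differed most surely, at 2.64 in TSC1 KO and -0.20 in Db islets (difference 2.75 ± 0.42 SE on the log2 scale, edgeR adjusted p = 0.000518). Lama4 was 0.82 in the one and -1.14 in the other (1.86 ± 0.40, edgeR adjusted p = 0.00416). Lamb2 differed by 1.24 ± 0.31, Lama3 by 1.52 ± 0.46, Lama2 by 2.00 ± 0.63 and Lama5 by 0.92 ± 0.27. These last 4 lost the call with library size alone and without at least 1 library.

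Col4a4 went up in TSC1 KO islets and down in Db islets, and its differences were unequal (2.72 ± 0.50, edgeR adjusted p = 0.00162). Fbn1 differed by 2.28 ± 0.49 (edgeR adjusted p = 0.00568) and Col15a1 by 1.38 ± 0.32 (edgeR adjusted p = 0.00648). Fbn1, Col4a4, Lama4 and Lamc3 were called under every alternative run for this contrast. Col5a3, Col18a1, Col23a1 and Col9a3 were also called with the TSC1 KO difference higher, and Col11a2, Col20a1 and Col10a1 with it lower, each lost without at least 1 library. For the fibrillar chains that were higher in Db islets the differences had wide errors, 2.50 ± 1.63 for Col1a1, 1.71 ± 1.44 for Col1a2 and 1.18 ± 1.27 for Col3a1, and none was called. Fn1 and Col5a2, called higher in both comparisons, differed by 0.63 ± 0.85 and 0.79 ± 0.64 and were not called here. Col18a1, Lama5, Col4a5 and Col8a1 were called higher in both comparisons too, and Col11a2 lower in both.

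**Figure D5:**
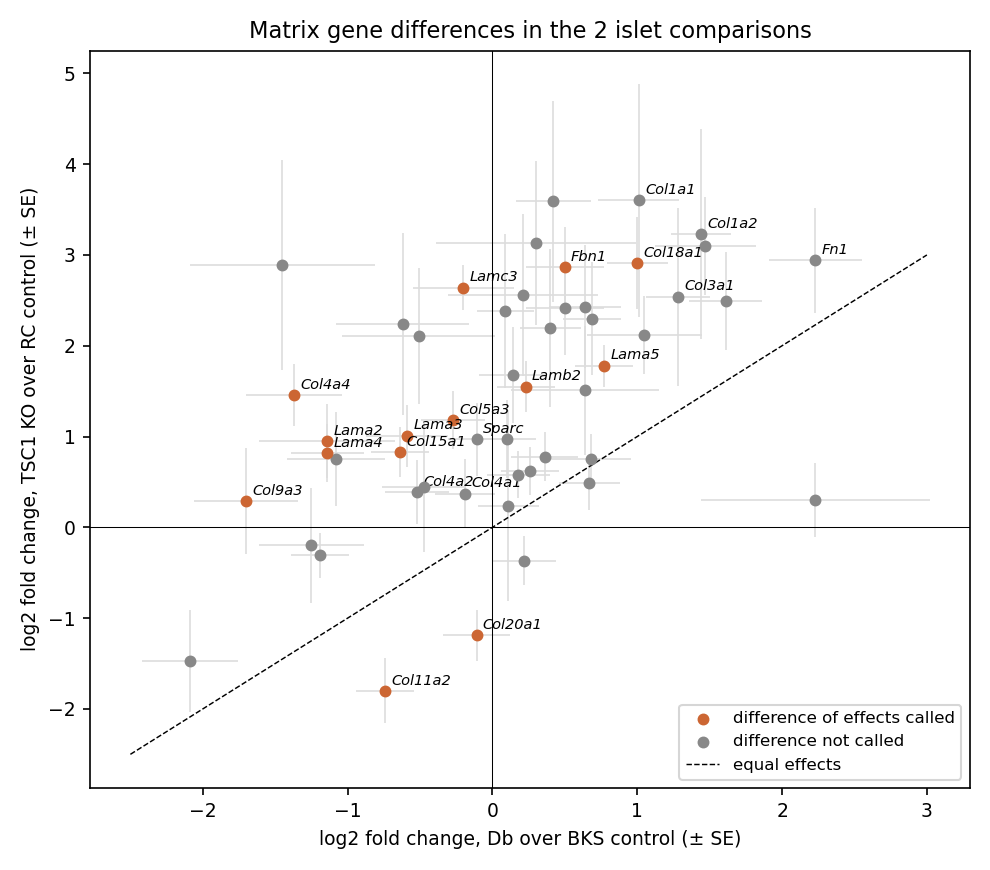
Log2 fold change with its SE for 51 of the matrix genes tested in both islet tables, Db over BKS control on the x axis and TSC1 KO over RC control on the y axis; orange marks genes whose difference between the effects was called and the dashed line marks equal effects. Of these genes 46 lie above the line, among them Lamc3, Lama4 and Col4a4, and 14 are orange, beside 31.8% of all genes called in the joint fit. The median difference in that fit was 1.37 for the tested matrix genes and 0.00 for all genes. Without TSC1 KO replicate 2 these medians were 0.79 and -0.08.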

How the data were processed

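RNA-seq gene counts of 14 libraries were used in 3 deposited tables, which the authors made as raw counts per gene. The libraries were prepared from total RNA with a stranded SMARTer kit, per the labels' protocols. The submitters' processing notes name cutadapt 1.13, GSNAP, HTSeq 0.7.1, DESeq2 1.16.0 and the builds NCBIM37 and mm9, without a strand setting, so genes overlapping another gene are uncertain. Of the 70 members, 23 overlap a counted gene on the opposite strand.

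Each table was fitted separately with edgeR 4.0.16 in R 4.3.3 (TMM scaling, filterByExpr with a minimum count of 10 and a minimum total of 15, robust quasi-likelihood test, Benjamini-Hochberg adjustment over all genes tested, threshold 0.05). CPM and log2 fold changes were computed from the counts, and the SE is the absolute log2 fold change divided by the square root of F. The script was tested on simulated data. Alternatives were other scalings, no filter, DESeq2 1.42.0, limma-voom 3.58.1, removal of GC and length trends, a replicate block and leaving out each library.

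Identifiers were named from GENCODE, which gave symbols for 87.4%. Core members and every called member were named with values, and up to 4 called genes of each other list by smallest p; where 5 or fewer genes of a list went one way, they could be named after their values were seen. Members and lists were chosen with earlier results of these data known. The labels do not say whether replicates are separate animals. The p-values set each difference only against the spread between these libraries, and that spread may be technical. A column heading repeated in the neonatal group was treated as replicates 3a and 3b. Intervals cover counting error only, and the total counts of a library limit its precision. Counts cover every member and list gene tested, while single results of some genes are not reported here.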

Additional observations from a re-analysis of the deposited data

How the results depend on the processing

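Depth limits the rarer members: 9 of the 70 were tested in no table, and in β-cells most had few counts. Members called in β-cells numbered 1, and 3 with library size only, 4 with no filter on low counts, 2 with DESeq2, 1 to 5 when a library was left out (5 without neonatal replicate 3a), 0 with a replicate block (edgeR, with 3 at an unadjusted p under 0.05 and 0.0543 as the lowest adjusted one) and 3 with a replicate block and DESeq2. For TSC1 KO the 16 calls became 0 to 22 when a library was left out, 0 and 0 with limma-voom and 20 and 8 with DESeq2 without TSC1 KO replicate 1 or 2 (added after seeing the data, as was the block with DESeq2), and 12 with a replicate block. For Db the 26 calls ranged from 18 to 30 when a library was left out and were 26 with a replicate block. For the difference of effects the 16 calls became 9 with library size only, 6 to 24 when a library was left out (6 without Db replicate 1, 7 without Db replicate 2 or BKS control replicate 2, 8 without TSC1 KO replicate 2, 9 without BKS control replicate 1) and 13 with a replicate block. Deviations of same-numbered libraries from their group means had correlations of -0.07 to 0.00. In a group of 2 libraries the deviations mirror each other, so this cannot decide whether the numbers pair the libraries. Where a call was lost the cause was not tested. Library size alone moved the median log2 fold change of all genes to -0.19, -0.25, 0.29 and -0.47 in the β-cell, TSC1 KO, Db and difference fits.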
